A study of Mus musculus with 4 samples.

Results

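Egr1, Egr2, Egr3 and Nr4a1 are 4 immediate early genes, that is, genes which a stimulus can switch on without new protein synthesis. All probe sets that the array annotation gives to one of these 4 symbols were taken, which made 6 probe sets of the 45101 on the array, and none of the probe sets annotated to several genes held a member. Egr1 and Nr4a1 each have 1 probe set, and Egr2 and Egr3 have 2 each. RNA came from mouse embryonic 3T3 fibroblasts, an immortal line, and was hybridised to 4 Affymetrix Mouse Genome 430 2.0 arrays. All cells had spent the night before in medium with 0.5% serum. For all groups the labels also give growth in 10% serum, 24 h of culture and a confluence of at most 90%. The groups were basal cells, which received no TNF (tumour necrosis factor, an inflammatory cytokine), and cells given TNF for 0.5 h, 2 h or 12 h, with 1 array each. TNF was used at 10 ng/ml for 0.5 h and 12 h, while the treatment text of the 2 h sample is that of the basal sample and mentions no TNF. Only its title and source name place it at 2 h of TNF, so every 2 h value below is that of the array so labelled. Cells held equally long in 0.5% serum without TNF were not analysed here, so TNF and elapsed time cannot be told apart.

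EGR proteins are transcription factors that bind GC-rich DNA through C2H2 zinc fingers, and Egr1 is the best known member in growth-stimulated fibroblasts. Nr4a1, also called Nur77, is an orphan nuclear receptor that activates transcription without a known hormone. In many cell types serum, growth factors and stress raise all 4 RNAs quickly through kinases of the MAP kinase and cyclic AMP pathways, which act on the factors SRF (with its ternary complex partners) and CREB, and the RNAs are short-lived. SRF binds the CArG box and CREB binds the cyclic AMP response element (CRE).

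These elements are shown for the 2 of the 4 genes that have an entry in the RefSeq promoter table used (GRCm38.p6), because they are the elements named above. The table lists 5 transcript starts for Egr2 and 1 for Nr4a1. Of the Egr2 starts, 2 with different CArG boxes are shown. The windows of 2 further starts overlap the second one and hold the same CArG box and CRE cores, and the window of the start at 67535499 holds GC boxes but no CArG box, CRE core or EGR site by these letters. Each line gives the bases from 120 to 31 before a start, 5′ to 3′ on the plus strand, with CArG boxes, CRE cores and EGR sites in capitals. The first Egr2 line is chr10:67537446-67537535, the second Egr2 line is chr10:67537749-67537838, and the Nr4a1 line is chr15:101266726-101266815.
Egr2, start at 67537566: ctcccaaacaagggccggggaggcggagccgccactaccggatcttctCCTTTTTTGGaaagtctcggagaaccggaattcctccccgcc
Egr2, start at 67537869: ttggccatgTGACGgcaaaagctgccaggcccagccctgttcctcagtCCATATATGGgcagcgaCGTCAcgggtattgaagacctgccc
Nr4a1, start at 101266846: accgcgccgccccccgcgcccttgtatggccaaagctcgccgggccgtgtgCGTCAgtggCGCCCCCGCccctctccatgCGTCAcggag

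Both Egr2 stretches hold a CArG box, CCTTTTTTGG or CCATATATGG, and both boxes lie 72 to 63 bases before their own start. The second Egr2 stretch also holds the CRE core CGTCA on each strand. The Nr4a1 stretch holds 2 CRE cores and, between them, an EGR site GCGNGGGCG read on the minus strand, which overlaps a GC box (GGGCGG). The Nr4a1 window of 250 bases holds 2 further CRE cores 233 and 213 bases before the start and no CArG box by these letters. Both strands were searched in the 250 bases before each of 32851 starts. A CArG box was present in 1.47% of these windows, a CRE core in 17.8%, an EGR site in 4.7% and a GC box in 32.7%. The 10-letter NF-kB site, present in 3.9% of windows, and the full CRE TGACGTCA, present in 1.55%, were not among the letters of the windows of either gene. These matches describe letters only.

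The 4 genes were highest at 0.5 h and lowest at 12 h on the brightest probe set of each. Values are the deposited linear signals of probe sets, and "rose" and "fell" mean a ratio of at least 2-fold after any lower signal was raised to a floor of 9.08, the 30th percentile of the whole table. With 1 array per group there is no spread between replicates and 0 tests were run. In bulk RNA, fewer expressing cells and less RNA per cell cannot be told apart. Egr1 (1417065_at) had a signal of 2174 on the basal array, then 3688 (0.5 h), 681 (2 h) and 325 (12 h). Egr3 (1436329_at) had 448, 537, 75.5 and 15.0 at the same 4 points in the same order. Nr4a1 (1416505_at) had 736, 753, 117 and 46.1. In Egr1 the 0.5 h array was above the basal one, whereas in Nr4a1 the 2 signals lay side by side, and in all 3 genes the arrays at 2 h and 12 h were both far below basal.

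Egr2, known for its part in hindbrain patterning and in myelin formation, was read by a pair of probe sets of low signal. Its probe set 1427683_at had 81.9 on the basal array, then 119.8 (0.5 h), 21.5 (2 h) and 14.4 (12 h), and its probe set 1427682_a_at had 55.2, 116, 12.5 and 10.1. Both gave the same order of the 4 arrays, with the 12 h signals not far above the floor. The second probe set of Egr3, 1421486_at, was dim throughout, with 30.3, 35.5, 31.3 and 5.85. It was level over the first 3 arrays and low only at 12 h, and so did not show the low 2 h signal of its brighter partner.

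**Figure D1:**
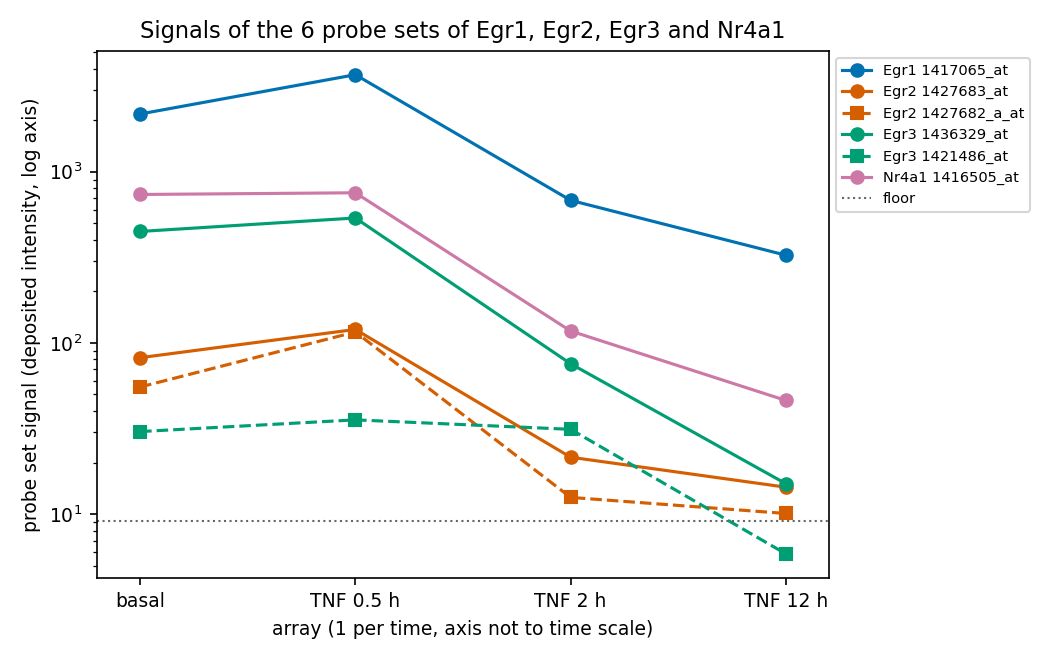
Deposited signal (log axis) of each of the 6 probe sets on the basal array and after 0.5, 2 and 12 h of TNF; each point is 1 array, solid lines are the brightest probe set of a gene, dashed lines the second one, and the dotted line is the floor of 9.08. Of the 6 lines, 5 drop steeply between 0.5 h and 2 h, and the dashed Egr3 line stays level until 2 h.

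The first comparison asked how far these early genes stood from basal once TNF had acted for 0.5 h. Egr1 was 1.70-fold above basal, a log2 ratio of 0.76 that ranked as the 50th highest among 7311 genes of clear signal, meaning a signal of at least 102 (the 75th percentile) on 1 or more arrays. The brightest probe sets of Egr2 and Egr3 were 1.46-fold and 1.20-fold above basal, and Nr4a1 was 1.02-fold above, rank 2030. Only the Egr2 probe set 1427682_a_at passed the rule, at 2.10-fold with signals of 116 at 0.5 h and 55.2 in basal cells. Thus 1 of 6 probe sets rose, where 2.76% of all annotated probe sets analysed did, and 0 of 6 fell, where 3.2% did. All 6 ratios were nevertheless above 1.

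How much weight such small ratios can carry depends on signal. Among 1015 genes with a mean signal of 1024 or more, like that of Egr1, the scaled median absolute deviation of the 0.5 h log2 ratio was 0.07, against the 0.76 of Egr1. Among 2191 genes with mean signals between 128 and 256, like those of Egr3 and Nr4a1, it was 0.18. The 0.03 of Nr4a1 was under that scatter and the 0.26 of Egr3 somewhat above it. Among 1790 genes between 256 and 512, nearer the basal and 0.5 h signals of Egr3, the deviation was 0.14. The Egr3 ratio ranked as the 365th highest among the 7311 genes of clear signal. Among 3502 genes between 16 and 64, like Egr2, the deviation was 0.49, close to the 0.55 of the brightest Egr2 probe set. That mean signal includes the low 2 h and 12 h arrays, whereas the basal and 0.5 h signals of Egr2 were 81.9 and 119.8. Among 1963 genes between 64 and 128 the deviation was 0.25, so the reading of the Egr2 ratio depends on the signal class used.

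At 2 h all 4 genes had fallen below basal, and they held the first 4 places among falls of the 7311 genes of clear signal. Nr4a1 was lowest relative to basal, with 117 at 2 h against 736 in basal cells (6.28-fold lower, log2 ratio -2.65). Egr3 had 75.5 against 448 (5.93-fold, -2.57), Egr2 21.5 against 81.9 (3.81-fold, -1.93) and Egr1 681 against 2174 (3.19-fold, -1.68). In percent of basal, 15.9% of the Nr4a1 signal, 16.9% of Egr3, 26.2% of Egr2 and 31.3% of Egr1 was left. Egr2 counts as clear only through its 0.5 h signal of 119.8, and the genes were chosen with earlier results of these arrays known, so these ranks are a description.

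By probe set, 5 of 6 fell at 2 h, where 3.89% of all probe sets analysed did, and by gene 4 of 4, where 3.6% of genes did. Among genes of clear signal the share that fell was 0.328%, or 24 genes. The Egr2 probe set 1427682_a_at fell 4.42-fold, and the exception was the dim Egr3 probe set 1421486_at, with 31.3 at 2 h and 30.3 in basal cells.

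At 12 h the distance from basal had grown for every gene, and most for Egr3. The Egr3 signal was 15.0 at 12 h against 448 in basal cells, 29.8-fold lower, so that 3.36% of basal was left. Nr4a1 had 46.1 against 736, 16.0-fold lower (6.26% left). Egr1 with 325 against 2174 was 6.68-fold lower and Egr2 with 14.4 against 81.9 was 5.71-fold lower, which left 15.0% and 17.5% of their basal signals. The dim Egr3 probe set went under the floor at 12 h, at least 3.34-fold below basal. All 6 probe sets fell, where 5.78% of all probe sets did, and all 4 genes, where 5.18% of all genes and 2.64% of genes of clear signal did. Egr3 and Nr4a1 ranked 1 and 2 among falls of clear genes, Egr1 ranked 6 and Egr2 ranked 8. Egr2 counts as clear only through its 0.5 h signal, and Egr3 only through its basal and 0.5 h signals. The genes were also chosen with earlier results of these arrays known, so the 12 h ranks are a description.

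**Figure D2:**
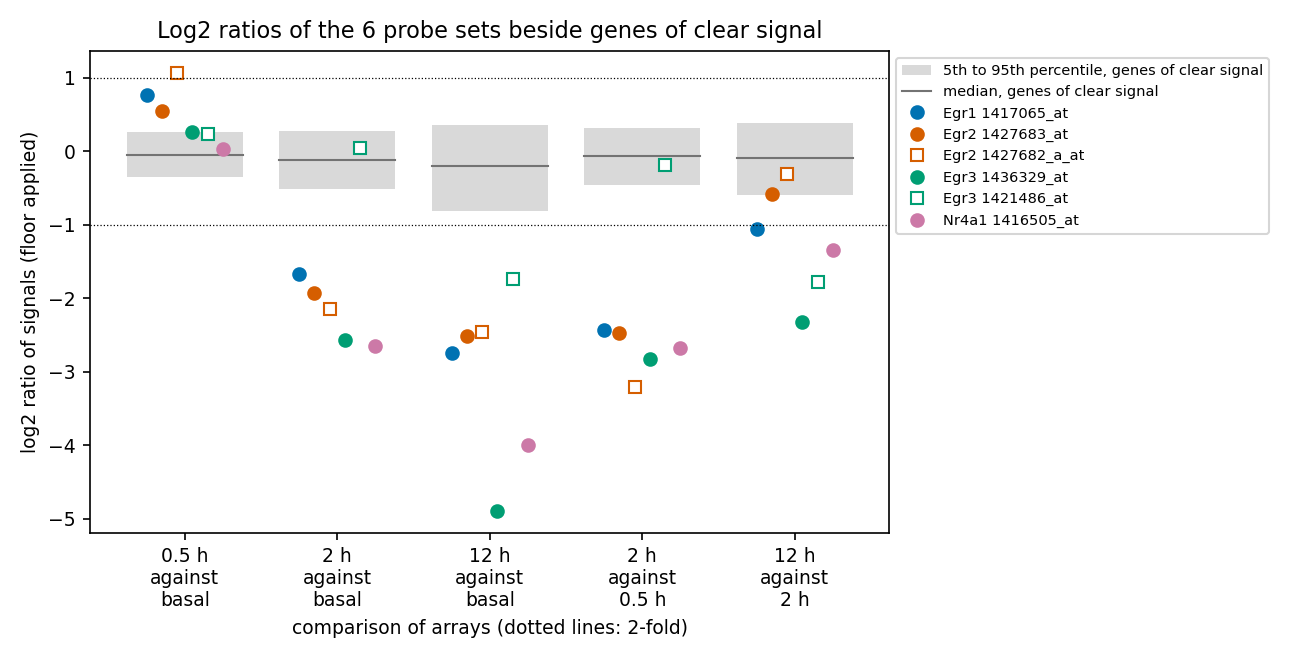
Log2 ratio of signals for each of the 6 probe sets in the 3 comparisons with basal and the 2 steps between TNF arrays; filled circles are the brightest probe set of a gene, open squares the second one, grey bars span the 5th to 95th percentile and grey lines mark the median of 7311 genes of clear signal. At 2 h against 0.5 h the 4 filled circles lie between -2.44 and -2.83, while at 12 h against 2 h they spread between -0.58 and -2.33.

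The steps between TNF arrays show that, on their brightest probe sets, the 4 genes shared the early drop and differed in the late one. Between 0.5 h and 2 h the log2 ratio was -2.83 for Egr3, -2.68 for Nr4a1, -2.48 for Egr2 and -2.44 for Egr1. This is a range of less than 0.4 across genes whose signals at 0.5 h ran between 119.8 and 3688. The second probe sets lay outside that range, at -3.21 for Egr2 (1427682_a_at) and -0.18 for Egr3 (1421486_at). If the signal of each brightest probe set is taken to drop at a constant rate over the 1.5 h, it halved every 0.530 h for Egr3, 0.559 h for Nr4a1, 0.605 h for Egr2 and 0.615 h for Egr1. On the second probe sets it halved every 0.467 h for Egr2 and every 8.17 h for Egr3. These times combine synthesis and decay of RNA, which the arrays cannot separate. In this step 5 of 6 probe sets fell, where 3.24% of all probe sets, 2.96% of genes and 0.506% of genes of clear signal did.

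Between 2 h and 12 h the log2 ratio was -2.33 for Egr3 (15.0 against 75.5), -1.35 for Nr4a1 (46.1 against 117), -1.07 for Egr1 (325 against 681) and -0.58 for Egr2 (14.4 against 21.5). Egr3, Nr4a1 and Egr1 fell by the rule and Egr2 did not, and the Egr2 signals at both times were close to the floor. By probe set 4 of 6 fell, where 3.62% of all probe sets, 3.12% of genes and 0.985% of genes of clear signal did. At a constant rate over the 10 h the signal halved every 4.30 h for Egr3, 7.42 h for Nr4a1 and 9.39 h for Egr1, several times more slowly than in the earlier step. Of the whole log2 distance to basal reached at 12 h, 52.4% was already present at 2 h for Egr3, 66.3% for Nr4a1, 61.1% for Egr1 and 76.8% for Egr2. The fall of Egr1 in the late step was past 2-fold on the deposited values and with median centring (-1.01) but short of it with quantile normalization (-0.95) or loess (-0.95).

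The median log2 ratio of all probe sets drifted downward, by -0.05 at 0.5 h, -0.12 at 2 h and -0.20 at 12 h, which is small beside the falls of the 4 genes. Over the deposited values and 3 scalings between arrays, the log2 ratio at 2 h ran between -2.65 and -2.52 for Nr4a1, between -2.57 and -2.44 for Egr3, between -1.93 and -1.82 for Egr2 and between -1.68 and -1.57 for Egr1. Ratios of 3′ to 5′ signal, which rise as RNA degrades, stayed between 1.21 and 1.26 for Actb and between 0.736 and 0.776 for Gapdh. Of 10 fibroblast markers 8 had a signal of at least 102 on all 4 arrays, and their summed signal ran between 38169 and 39572. Of 7 macrophage and leukocyte markers none did so on all arrays, and only Cd14 reached 102 on any, with 98.2 on the basal array and 111 at 0.5 h. The pan-leukocyte gene Ptprc was under the floor on all 4 arrays. The summed signal of the 7 markers ran between 234 and 258. None of 4 endothelial or 5 epithelial markers reached 102 on any array, and their summed signals stayed between 48.0 and 59.0 and between 78.1 and 102. Of 3 adipocyte markers only Fabp4 reached 102, and their summed signal was 1906 on the basal array, then 1921 (0.5 h), 1692 (2 h) and 1479 (12 h). It was lower at 2 h and 12 h, as the 4 genes were, by less than 2-fold, and its part in the results was not tested.

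The nearest relatives of the 4 genes had low signals. Egr4 had 14.3 on the basal array, then 17.8 (0.5 h), 4.02 (2 h) and 13.8 (12 h), and fell at no time once signals were raised to the floor. That call depends on the floor, since its log2 ratio at 2 h was -0.66 but -1.58 with the floor at the 20th percentile and -1.83 with none. Nr4a2, also called Nurr1, had 52.7, 55.3, 47.6 and 57.1 on the brightest of 6 probe sets, all within 2-fold of basal, while its dimmer probe sets ran between -1.89 and 0.49 at 0.5 h on the log2 scale. Nr4a3 had 6.34, 8.64, 23.0 and 8.32, so that it was under the floor except at 2 h, where it was at least 2.53-fold above basal; its other 2 probe sets gave log2 ratios down to 0.00 at that time. No relative reached a signal of 102 on any array.

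Of 5 partners of these proteins only Nab2 (at 12 h) and Rxrg (at 2 h) passed the rule against basal, both as falls. Of all genes 2.96%, 3.6% and 5.18% fell at 0.5 h, 2 h and 12 h, and 2.55%, 2.58% and 2.79% rose. With so few genes the count is a description only. Nab1 and Nab2 encode co-repressors that bind EGR proteins and hold back their activity. Nab1 (1417624_at) had 761 on the basal array, then 946 (0.5 h), 779 (2 h) and 560.5 (12 h), within 2-fold throughout. Nab2 (1417930_at), itself a known target of EGR proteins, had 292, 218, 310.4 and 129, and so was near basal at 2 h, when the EGR genes were low, and fell 2.26-fold at 12 h. With quantile normalization or loess that 12 h fall of Nab2 was short of 2-fold (-0.95 and -0.94 on the log2 scale). Among retinoid X receptors, which can pair with Nr4a1, Rxra had 130.3, 110.5, 110.6 and 84.7 and Rxrb 190.4, 199, 165 and 206, neither past 2-fold. Rxrg was dim, with at most 29.4 on any array, and its fall at 2 h to under the floor was only just past 2-fold.

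Of the 19 other immediate early genes in the list, 6 rose at 0.5 h and 0 fell, where 2.55% of all genes rose and 2.96% fell. The list's median log2 ratio was 0.47, against -0.03 over all genes analysed. These 6 were Fos, Csrnp1, Btg2, Junb, Ier2 and Klf10, and Jun, with 803 at 0.5 h against 432 in basal cells, was 0.89 higher on the log2 scale. Fos (1423100_at), an AP-1 subunit, had 526 at 0.5 h against 151 in basal cells, 3.50-fold higher. None of the 4 EGR and Nr4a1 genes rose on its brightest probe set at that time.

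At 2 h, of the 19 others, 0 rose, where 2.58% of all genes did, and 2 fell, Klf4 (log2 ratio -1.07) and Klf2 (-1.01), and with any of 3 scalings neither was past 2-fold. The list's median log2 ratio was -0.02, against -0.09 over all genes analysed and -2.25 for the 4 EGR and Nr4a1 genes. Junb (0.14), Btg2 (0.09) and Klf10 (-0.02) were back near basal. At 12 h 6 of the 19 fell and 1, Fosb, rose at a signal of 18.9, where 5.18% and 2.79% of all genes did so. Fos fell 6.68-fold, with 22.6 at 12 h against 151 in basal cells. Klf10 fell 2.50-fold, and Btg2, Ier2, Klf4 and Klf2 fell by between 1.13 and 1.28 on the log2 scale. With the mean of its 2 probe sets Klf4 was short of 2-fold, at -0.71 (2 h) and -0.91 (12 h). With quantile normalization or loess 3 of the 19 fell.

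**Figure D3:**
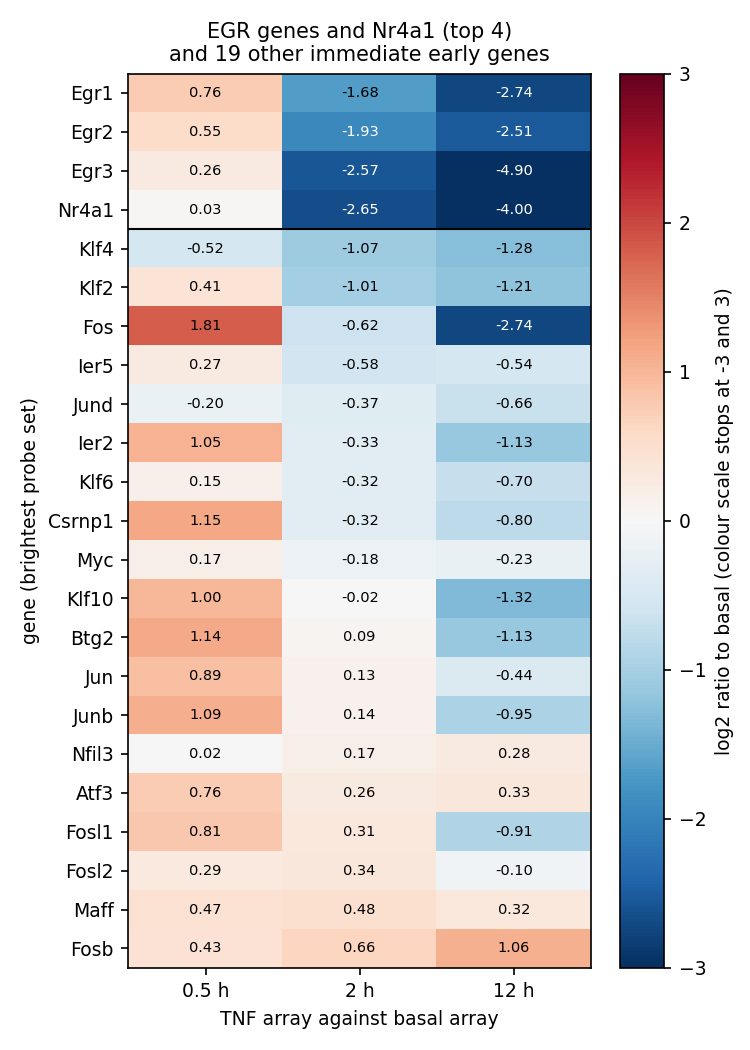
Log2 ratio to basal at 0.5, 2 and 12 h of TNF for Egr1, Egr2, Egr3 and Nr4a1 (above the line) and for 19 other immediate early genes (below it, ordered by the 2 h ratio), each by its brightest probe set; red is above and blue below basal. The 4 upper genes are near or moderately above basal at 0.5 h and lowest in the 2 h column, where Klf4 (-1.07) and Klf2 (-1.01) come next.

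The drop between 0.5 h and 2 h was shared with others. Among 7311 genes of clear signal 37 fell in this step, the 4 EGR and Nr4a1 genes among them at places 1 to 4. Egr2 (119.8), Dusp5 (106), Cxcl2 (203) and Edn1 (243) count as clear only through their 0.5 h signals, the upper side of this step. The same holds for BC052040, Csrnp1, Rusc2, Slc25a25 and Fgf18. The choice of genes itself therefore favours such falls, and the places and halving times are a description. Fos came next with a log2 ratio of -2.43 (97.9 at 2 h against 526 at 0.5 h), 0.01 from that of Egr1, and its signal halved every 0.618 h at a constant rate. Cxcl2, Zfp36 and Edn1, chosen after their values were seen, halved every 0.662, 0.780 and 0.817 h. The 33 other genes halved every 0.618 to 1.49 h, with a median of 1.29 h. Of these 33, 11 were also at least 2-fold below basal at 2 h. What set Fos apart from Egr1 was where the step began: the log2 ratio of Fos to basal was 1.81 at 0.5 h and -0.62 at 2 h, while that of Egr1 was 0.76 and -1.68.

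At the early times the listed upstream factors stayed within 2-fold of basal at RNA level, as most genes did. Of 12 genes of the SRF and CREB axis 0 rose or fell at 0.5 h or at 2 h, and 1 fell at 12 h. Of all genes 2.55% rose and 2.96% fell at 0.5 h, 2.58% rose and 3.6% fell at 2 h, and 5.18% fell at 12 h. In so short a list these counts are near those shares. That gene was Srf (1418255_s_at), with 497 on the basal array, then 497 (0.5 h), 383 (2 h) and 217 (12 h), 2.29-fold lower at 12 h than in basal cells; with quantile normalization or loess it was short of 2-fold (-0.95 and -0.96). The medians of the list were -0.11, -0.16 and -0.49 at the 3 times, against -0.03, -0.09 and -0.14 over all genes. Of 8 genes of the ERK kinase cascade with a probe set named here, such as Map2k1 (691, 656, 693 and 779), 0 rose or fell at any time. That count too is near the shares over all genes.

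Feedback inhibitors of ERK signalling held the gene most like the 4. Of 14 such genes 0 rose or fell at 0.5 h, where 2.55% of all genes rose and 2.96% fell. In the list 3 fell at 2 h and 3 at 12 h, where 3.6% and 5.18% of all genes fell. The list's medians at 2 h and 12 h were -0.41 and -0.58, against -0.09 and -0.14 over all genes. Dusp5 (1437199_at), which encodes a nuclear phosphatase of ERK kinases, had 83.6 on the basal array, then 106 (0.5 h), 26.4 (2 h) and 7.49 (12 h). It fell 3.17-fold at 2 h and at least 9.20-fold at 12 h, when it was under the floor. The other falls, of Dusp6 and Dusp4 at 2 h and of Dusp4 and Spred3 at 12 h, were at basal signals of at most 53.6. Spry2 (1436584_at), with 119.5 at 2 h against 220.1 in basal cells, was short of 2-fold (-0.88).

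By Euclidean distance over the 3 log2 ratios to basal, among 7307 other genes of clear signal, Dusp5 was the nearest gene to each of the 4. Its distance was 0.62 to Egr1, 0.77 to Egr2, 1.30 to Nr4a1 and 1.92 to Egr3. For Egr1 and Egr2 the next were Hes1, a repressor in the Notch pathway, at 1.20 and 1.02, and Id2, an inhibitor of basic helix-loop-helix factors, at 1.27 and 1.10. For Egr3 they were the kinase gene Nrk (2.91) and the condensin subunit gene Smc4 (3.04), and for Nr4a1 they were Id2 (2.32) and Nrk (2.37). Among themselves Egr1 and Egr2 were 0.40 apart and Egr3 and Nr4a1 0.93 apart, while the distances across these pairs ran between 1.73 and 2.48. The 3 ratios share the basal array, and the distance describes these 4 arrays only.

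**Figure D4:**
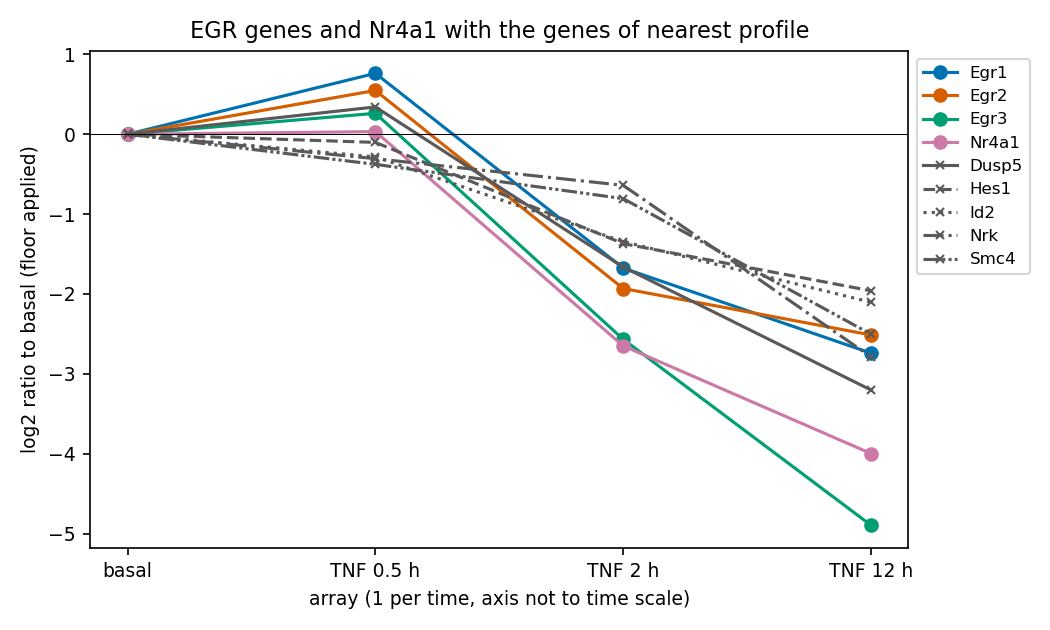
Log2 ratio to basal on the 4 arrays for Egr1, Egr2, Egr3 and Nr4a1 (coloured) and for the genes that came nearest to any of them (grey); each point is 1 array and basal is 0. Dusp5 runs close to Egr1 until 2 h, and Egr3 and Nr4a1 go below all other lines at 2 h and 12 h.

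Of 16 genes described elsewhere as targets of EGR proteins, 1 rose and 1 fell at 0.5 h, where 2.55% and 2.96% of all genes did. At 2 h 1 rose and 1 fell, where 2.58% and 3.6% did, and at 12 h 1 rose and 2 fell, where 2.79% and 5.18% did. The list's medians were 0.01, 0.01 and -0.04, against -0.03, -0.09 and -0.14 over all genes. Gadd45b (1450971_at), a stress response gene, had 446 on the basal array, then 1214 (0.5 h), 866 (2 h) and 559.8 (12 h) and rose 2.72-fold at 0.5 h. Icam1, a leukocyte adhesion gene that NF-kB also drives, had 19.1, 21.5, 228 and 152 in the same order of arrays and rose 11.9-fold at 2 h and 7.97-fold at 12 h. Nab2 is described above, and Hpse, at 30.7 in basal cells, fell at all 3 times at low signal. With median centring, quantile normalization or loess 3 of the 16 rose at 2 h. The growth factor gene Pdgfb had 372 on the basal array, then 447 (0.5 h), 699 (2 h) and 373 (12 h). The tissue factor gene F3 had 734, 1086, 701 and 399.7. Neither was past 2-fold of basal on the deposited values. Pdgfb at 2 h was close to the rule, at 0.91 on the log2 scale, and its second probe set was 1.23 above basal.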

How the data were processed

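RNA of 4 samples, 8 µg each per the labels' protocols, was hybridised to Affymetrix Mouse Genome 430 2.0 arrays, 1 per group. The authors deposited linear intensity values, 1 per probe set and array; how probe signals were summarised and arrays scaled is not given in the sources used here. Control probe sets (64) named no gene. The platform annotation gave 1 gene to 34945 of the other probe sets and several to 932. Its symbols for all 4 members were found in the RefSeq table of GRCm38.p6, which was used for names. For each of 18193 genes the brightest probe set (by mean log2 signal) was used, and 16269 genes above the floor on 1 or more arrays were analysed. Log2 ratios were taken from the deposited values without further scaling; the 2-fold rule stands in for a test, and the number of arrays limits the precision.

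Alternatives were floors at the 20th, 50th and 75th percentile or none, median centring, quantile normalization and cyclic loess (limma 3.58.1 in R 4.3.3), rules of 1.5-fold and 3-fold, and averaging all probe sets of a gene. Ratios and counts came from Python 3.11.15 and were checked on simulated arrays. All probe sets of the members were described. In lists of more than 3 genes the text names the genes past 2-fold with a clear signal, up to 4, and a few others as examples chosen after their values were seen. Members, lists and alternatives were chosen with earlier results of these data known. Promoter sequences are RefSeq's; Egr1 and Egr3 are named only.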

Additional observations from a re-analysis of the deposited data

How the results depend on the processing

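The 6 probe sets gave 270 recomputed ratios (3 comparisons with basal and 2 steps under 9 alternatives): 251 kept their side of the rule, 18 lost the call and 1 gained it. Of all 270, 13 became 0 because both signals were at or under a raised floor, 6 of them among the 251, and these have no direction; 0 changed sign. Of the 18, 11 arose with the floor at the 75th percentile, which lies above most Egr2 signals and all signals of the dim Egr3 probe set. With that floor 3 of 6 probe sets fell at 2 h, 3 at 12 h, 3 between 0.5 h and 2 h and 1 between 2 h and 12 h, and 0 rose at 0.5 h; with the 3-fold rule 0 rose at 0.5 h and 2 fell between 2 h and 12 h, and with the 1.5-fold rule 2 rose at 0.5 h. The falls of Egr1, Egr3 (brightest probe set) and Nr4a1 at 2 h and 12 h passed the rule under all 9 alternatives.

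The totals of all genes depended far more on the floor. At 0.5 h 415 rose and 481 fell, against 1007 and 1090 with the floor at the 20th percentile, 60 and 50 at the 50th, 24 and 1 at the 75th, 1643 and 1754 with none, 80 and 89 by the 3-fold and 1230 and 1455 by the 1.5-fold rule, and 307 fell with the mean of probe sets. At 2 h 420 rose and 586 fell, against 968 and 1260, 100 and 95, 35 and 12, and 1604 and 1999 with those floors, 89 and 91 or 1111 and 1815 with those rules, and 276 and 383 with the mean of probe sets. At 12 h 454 rose and 842 fell, against 957 and 1552, 121 and 304, 45 and 126, and 1622 and 2338 with those floors and 103 and 157 or 1236 and 2639 with those rules. Scaling (median centring, quantile normalization, then loess) moved the split at 12 h to 619 and 579, 646 and 556, and 634 and 512; at 2 h these gave 481 and 470, 491 and 462, and 489 and 442, and at 0.5 h 429 and 399, 440 and 410, and 399 and 377. Of 360 list counts 294 stayed within 1.5 times, and of 705 ratios of 24 other named genes 47 lost a call and 20 gained one. A further 12, of ratios within 2-fold of basal, changed sign, among them Klf10 at 2 h (-0.02, but 0.08 to 0.10 with the 3 scalings), Egr4 at 12 h (-0.05, but 0.10 to 0.13) and, with the mean of probe sets, Nab1 (0.31, but -0.18) and Nr4a2 (0.07, but -0.26) at 0.5 h.

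No paired analysis was possible because each group has 1 array. Signal sets what can be seen. Ratios of Egr2, of the dim Egr3 probe set and of the relatives rest on signals near the scatter of low values. The early ratio of Nr4a1 is under the scatter of genes of like signal. The early ratio of Egr3 (0.26) is small as well, beside a scatter of 0.18 or 0.14 by the signal class used.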

Other observations

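Of 8 serum-induced genes of secreted or signal-producing proteins analysed, 2 rose at 0.5 h (2.55% of all genes did), 1 rose at 2 h (2.58%), and 2 fell at 12 h (5.18%). The list's median log2 ratios were 0.33, -0.18 and -0.39, against -0.03, -0.09 and -0.14 over all genes. Edn1 (1451924_a_at), which encodes the vasoconstrictor endothelin, had 66.8 on the basal array, then 243 (0.5 h), 68.2 (2 h) and 69.5 (12 h), a rise of 3.64-fold that was over by 2 h. Lif, a cytokine gene, had 36.0, 222, 122 and 68.7, and its 12 h ratio to basal, 0.93 on the log2 scale, passed 2-fold with each of 3 scalings (1.09 to 1.15). Ptgs2 (1417262_at), the inducible cyclooxygenase gene, had 1116, 1574, 712 and 328 and fell 3.41-fold at 12 h, so its order of arrays was that of Egr1 with a smaller range. Cyr61 fell 2.16-fold at 12 h on the brightest of its 4 probe sets (2593 against 5602 in basal cells), which with median centring, quantile normalization or loess was short of 2-fold. Its probe sets ran between -1.11 and 0.57 on the log2 scale at 12 h, and their mean was -0.24, so the fall rests on the choice of probe set.

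Among 7311 genes of clear signal 17 (0.233%) fell at both 2 h and 12 h, of which 4 were the EGR genes and Nr4a1. The other 13 were Dusp5, Slc25a14, Rnf39, Hes1, Ces5a, Id2, Rps27, Malat1, Sorbs3, Tspan12, Klf4, Mark2 and Klf2, and at 0.5 h 8 of the 17 stood above basal. The 4 members were chosen with earlier results of these arrays known, so the count is a description. Egr2 (119.8) and Dusp5 (106) count as clear only through their 0.5 h signals. With median centring, quantile normalization or loess the 2 h falls of Klf4 and Klf2 were short of 2-fold (-0.97 to -0.88 on the log2 scale). With the mean of probe sets the 2 h falls of Klf4 (-0.71) and Id2 (-0.77) and the 12 h fall of Klf4 (-0.91) were short of it too.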
